A study of Rattus norvegicus with 8 samples.

Results

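Lipogenesis and lipid storage genes are the 36 named members of the pathway that builds fatty acids, joins them into triglyceride, stores them in droplets and releases them again, and all 36 were found by name among the 37209 gene rows of the count table. The rule takes members by gene name and uses no measured value, though the names were chosen with earlier results of these data known. Total RNA came from Sprague Dawley rats, an outbred strain, and was sequenced as 4 libraries of vein grafts and 4 of control jugular veins, with no other genotype or drug given in the labels. A graft is a vein set with cuffs between the cut ends of the left common carotid artery and recovered after 1 week, so it carried arterial blood. A control is the opposite jugular vein of the operated animal, recovered at the same time from the venous circulation. The protocol text of all 8 samples names brain cortex as the tissue extracted, while their tissue labels name vein. The libraries held the smooth muscle myosin Myh11 at 394 to 918.5 CPM in the grafts and 6001 to 9817 CPM in the controls (counts scaled to the TMM-adjusted library size), and the neuronal gene Snap25 at 0 to 0.674 CPM. Of 6 brain markers, Mbp, the basic protein of myelin in brain and peripheral nerve, was the exception: it measured 37.1, 48.6, 647 and 592 CPM across controls 1 to 4 and 10.8, 13.1, 55.7 and 13.5 CPM across grafts 1 to 4 and fell (edgeR adjusted p = 0.0142), and it was highest in the same controls, 3 and 4, as most members. The other 5 brain markers stayed at or below 5.20 CPM in each library, and the part of nerve tissue in the results was not tested. Neither the age or sex of the animals nor how much tissue around the vein was taken is given in the labels, and whether each library is 1 animal is not stated, so the p-values measure only the spread between these libraries.

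Fat cells take up fatty acids freed from lipoproteins, make more from citrate, and esterify them onto a glycerol backbone. The resulting triglyceride is kept in a droplet coated by perilipins, from which lipases release fatty acids when energy is needed elsewhere. In a vein many of these genes are carried above all by adipocytes of the perivascular fat, a tissue that surrounds most vessels. Some members also serve macrophages, endothelium and muscle or make membrane lipid in every cell.

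Library totals spanned 5981520 (control 4) to 14267490 counts for controls and 10533451 to 16061189 counts for grafts, so that 3 counts stood for 0.182 to 0.56 CPM. Fat content of the controls was read from 11 adipocyte markers outside the members. All 11 fell in the grafts, where 21.3% of all genes tested fell and 21% rose. Their summed level was 594, 932, 2468 and 2716 CPM in controls 1 to 4 against 54.8 to 81.3 CPM in the grafts. Lep, Retn, Lgals12 and Acvr1c lay at or below 0.243 CPM in every graft, under the low-count filter, so they were tested through the controls. Adipoq, Adrb3 and Car3 also lay under the filter in at least 1 graft. Adipoq, which encodes adiponectin, measured 83.7, 154, 613 and 660.4 CPM across controls 1 to 4 and 1.76, 0, 0.32 and 1.09 CPM across grafts 1 to 4. Lep, which encodes leptin, stood at 14.3, 14.5, 70.1 and 113 CPM and 0.121, 0.15, 0.16 and 0.193 CPM. For the sum and for both genes, controls 3 and 4 stood above controls 1 and 2, and every control stood above every graft. The 6 brown fat markers were mixed. Of the 4 tested, Cidea, Dio2 and Ppargc1a fell, and Prdm16 did not pass (edgeR adjusted p = 0.365). All 4 had counts in every library. Ucp1, which was not tested, was listed at 0, 0, 33.5 and 79.1 CPM in the controls and at 0 in the grafts. Elovl3 had no counts in any library. Most macrophage markers moved the other way: 8 of 10 rose, among them Cd68 at 6.14 to 14.8 CPM against 90.4 to 172 CPM. The 10 summed to 198 to 284 CPM in the controls and 1413 to 2596 CPM in the grafts. Msr1 did not pass (edgeR adjusted p = 0.451). Marco, which was not tested, had 14 and 26 counts in controls 2 and 3, 0 in controls 1 and 4, and a single count in graft 2. Smooth muscle markers fell (8 of 8), and their summed level went from a range of 13080 to 21663 CPM to a range of 1815 to 3470 CPM. Skeletal muscle markers varied within both groups, from 49.99 to 1494 CPM in the controls and from 39.2 to 994 CPM in the grafts. What part each of these tissues had in the results below was not tested, and in such bulk samples fewer cells of a type and less RNA per cell cannot be told apart.

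Lipogenesis and lipid storage genes were lower in the grafts. Of the 36 members, 28 fell, 0 rose, 5 were tested and did not pass, and 3 (Elovl6, Plin5 and Adig) were removed by the low-count filter. The call was an adjusted p under 0.05 by edgeR's quasi-likelihood test, adjusted by the Benjamini-Hochberg method over the 15464 genes tested ("edgeR adjusted p" below), of which 21.3% fell and 21% rose. Before adjustment, 30 members had a p under 0.05 and a lower level in the grafts, and 0 a higher one. By DESeq2, 28 fell and 0 rose, while 3580 and 3507 of all 15464 genes did. With no low-count filter 30 of the 36 fell, as did 3176 of 24983 genes. All 4 grafts lay below all 4 controls for 26 of the 36 members, among them the untested Plin5, against 19.8% of all genes tested. The mean log2 CPM was lower in the grafts for all 36, with a median difference of -1.86 against 0.03 over all genes tested. Passing the low-count filter depended on the controls for 9 members (Mlxipl, Aqp7, Thrsp, Gpd1, Pck1, Plin1, Cidec, Pnpla2 and Pnpla3), whose levels in at least 1 graft lay under the filter.

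**Figure D1:**
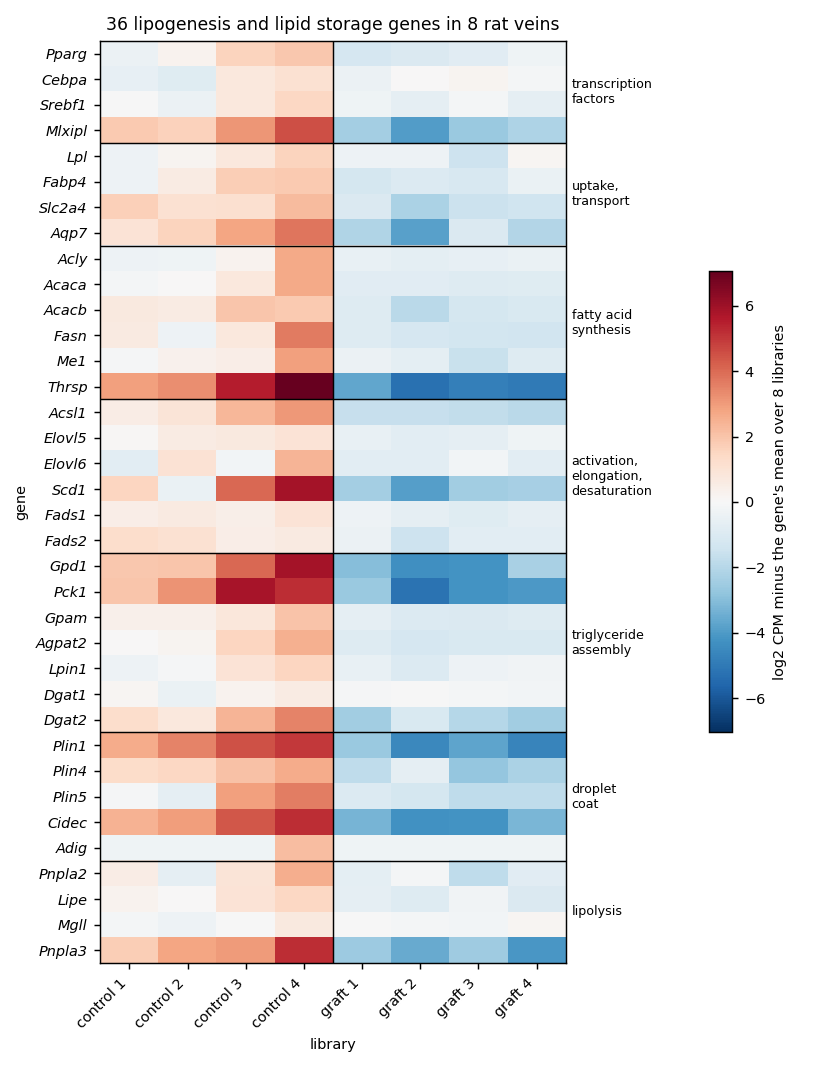
Rows are the 36 members by role, columns the 8 libraries, and colour is log2 CPM minus the gene's own mean over the libraries (red higher, blue lower). The darkest reds lie in controls 3 and 4, as for Thrsp at 419 and 1218 CPM, and the darkest blues in the grafts.

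The members fell by very different amounts. In the plot of fold changes by gene, Thrsp, Pck1, Cidec, Plin1, Pnpla3 and Gpd1 lay more than 7 log2 units below the controls. All of these are among the 9 members that passed the low-count filter through the controls, so the size of their falls rests on low graft counts. Elovl5, Lpin1, Fads1, Srebf1 and Lipe lay 1.02 to 1.46 units below, and Mgll and Dgat1 0.15 and 0.29 units. Of the 28 that fell, 23 were called under each other scaling, tool, filter and left-out library listed with the methods, and the other 5 (Pparg, Srebf1, Me1, Lpin1 and Pnpla2) lost the call in at least 1.

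**Figure D2:**
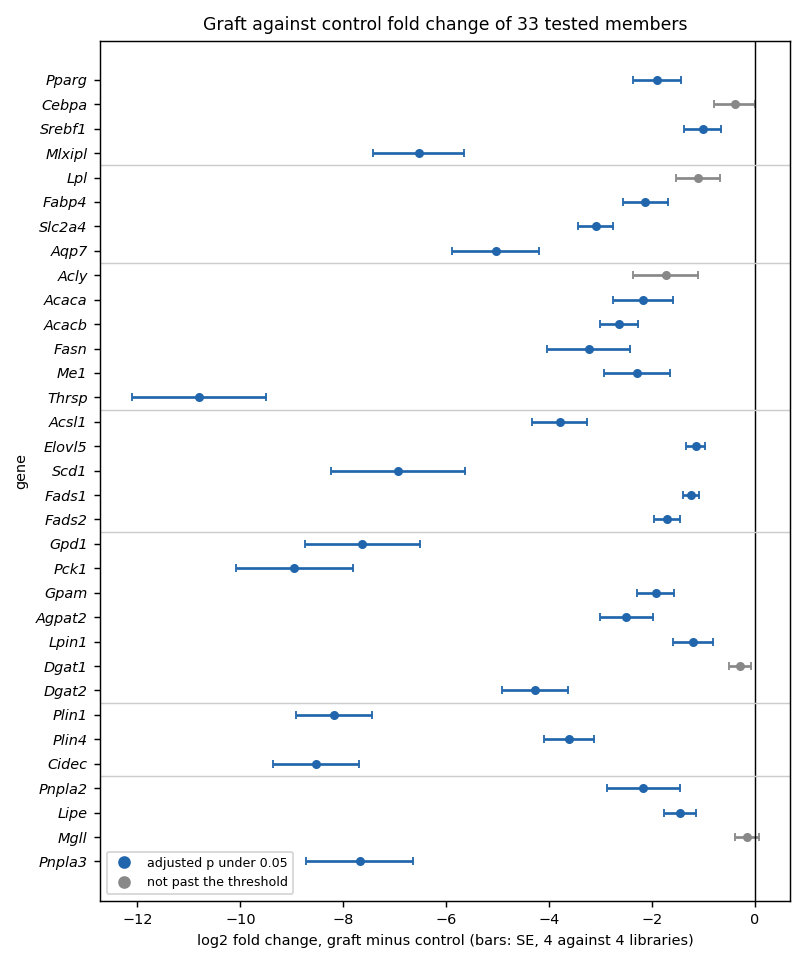
Points are log2 fold changes (x axis, graft minus control) of the 33 tested members (y axis, by role), bars their SE from 4 against 4 libraries, blue past an edgeR adjusted p of 0.05 and grey not. All points lie left of 0, from -10.81 for Thrsp to -0.15 for Mgll.

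Promoters are shown for the member with the smallest p in each role group but the uptake genes, so that these 6 fell follows from that choice. All of them except Fads1 are among the 9 members that passed the low-count filter through the controls. The RefSeq promoter table (GRCr8) held 32 windows for 25 of the members, and the members without an entry are Lpl, Fabp4, Slc2a4, Aqp7, Acaca, Fasn, Elovl6, Gpd1, Dgat1, Dgat2 and Lipe. Slc2a4, first by p among the uptake genes, is therefore not shown, and Scd1 was matched by its older symbol. Each window runs from 250 bases before the annotated start to 50 after it, on the gene's strand. Capitals mark the motifs that were searched on both strands: CCAAT (the box bound by NF-Y, read as ATTGG on the other strand), TATAAA (the TATA box), CACGTG (an E-box), GGGCGG (a GC box, read as CCGCCC on the other strand), TCACCCCAC (a sterol element) and AGGTCA (a nuclear receptor half-site). No motif overlaps another in the windows printed.
Mlxipl (chr12:27213607-27213906, minus strand, the first of its 2 windows, which start 4 bases apart): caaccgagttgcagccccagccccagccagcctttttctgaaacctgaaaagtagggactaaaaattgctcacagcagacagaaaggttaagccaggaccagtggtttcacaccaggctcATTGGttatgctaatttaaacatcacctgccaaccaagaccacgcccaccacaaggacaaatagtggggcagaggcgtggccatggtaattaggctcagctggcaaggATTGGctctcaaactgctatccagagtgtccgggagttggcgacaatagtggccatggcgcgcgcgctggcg
Thrsp (chr1:161138915-161139214, minus strand): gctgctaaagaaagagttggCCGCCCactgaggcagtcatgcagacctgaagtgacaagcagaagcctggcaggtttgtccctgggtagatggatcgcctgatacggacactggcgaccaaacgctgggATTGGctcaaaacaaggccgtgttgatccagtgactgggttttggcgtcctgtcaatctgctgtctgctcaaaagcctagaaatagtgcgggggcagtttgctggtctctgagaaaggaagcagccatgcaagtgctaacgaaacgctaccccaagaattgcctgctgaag
Fads1 (chr1:216252442-216252741, plus strand): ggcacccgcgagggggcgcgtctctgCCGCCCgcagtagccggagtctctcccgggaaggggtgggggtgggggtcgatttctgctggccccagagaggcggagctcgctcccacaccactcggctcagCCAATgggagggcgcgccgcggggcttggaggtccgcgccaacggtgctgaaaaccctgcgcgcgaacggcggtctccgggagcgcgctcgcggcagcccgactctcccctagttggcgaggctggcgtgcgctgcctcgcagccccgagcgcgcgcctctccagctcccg
Pck1 (chr3:182348322-182348621, plus strand): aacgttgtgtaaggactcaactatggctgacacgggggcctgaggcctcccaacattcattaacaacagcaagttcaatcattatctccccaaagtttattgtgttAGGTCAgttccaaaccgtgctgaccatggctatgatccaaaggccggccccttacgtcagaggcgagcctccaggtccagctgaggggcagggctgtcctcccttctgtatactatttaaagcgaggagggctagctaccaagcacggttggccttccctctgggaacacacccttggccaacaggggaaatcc
Plin1 (chr1:143086099-143086398, minus strand): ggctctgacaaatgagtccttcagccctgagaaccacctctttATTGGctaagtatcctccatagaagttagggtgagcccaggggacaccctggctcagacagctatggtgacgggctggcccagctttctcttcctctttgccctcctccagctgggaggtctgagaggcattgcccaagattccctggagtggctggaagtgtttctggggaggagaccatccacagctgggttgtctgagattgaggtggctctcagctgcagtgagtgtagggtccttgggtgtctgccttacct
Pnpla3 (chr7:117173278-117173577, plus strand): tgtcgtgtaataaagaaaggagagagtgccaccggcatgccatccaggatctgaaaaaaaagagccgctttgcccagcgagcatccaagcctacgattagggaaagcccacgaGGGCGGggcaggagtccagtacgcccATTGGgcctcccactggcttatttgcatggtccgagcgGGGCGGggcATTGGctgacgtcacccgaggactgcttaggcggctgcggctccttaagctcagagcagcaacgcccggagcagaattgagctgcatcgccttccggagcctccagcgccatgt
A CCAAT box stands in 5 of these 6 windows, and Pck1 has AGGTCA alone. Over the 32 member windows, some of which overlap because a gene has several starts, CCAAT was found in 53.1% and GGGCGG in 56.2%, against 37.5% and 33.1% of the 33469 windows of all genes. The shares were 12.5% against 16.2% for AGGTCA, 6.25% against 14.2% for TATAAA and 6.25% against 6.42% for CACGTG. TCACCCCAC was found in 0 member windows and in 0.484% of all windows. These matches describe letters in a window and were not tested.

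Of the 4 transcription factors that set the pathway, Mlxipl, Pparg and Srebf1 fell and Cebpa did not pass. Mlxipl (also called ChREBP), which senses carbohydrate and switches on lipogenic enzymes, measured 8.84, 7.37, 20.7 and 56.7 CPM across controls 1 to 4 and 0.303, 0, 0.24 and 0.385 CPM across grafts 1 to 4. The groups did not overlap, and the summed counts, 744 against 14, gave a ratio of 75.6 (95% counting interval 44.7 to 139, exact binomial, for counting error only). Its log2 fold change was -6.53 ± 0.89 (SE; edgeR adjusted p = 0.000413), and -5.63 without control 4. Pparg, the nuclear receptor that drives fat cell formation and is also made by macrophages, stood at 20.7, 33.3, 84.8 and 104 CPM in the controls and at 12.4, 14, 15.9 and 22.4 CPM in the grafts. Control 1 lay within the range of the grafts, which ended at graft 4. Pparg fell by 1.90 ± 0.47 log2 units (edgeR adjusted p = 0.00986), and with controls 3 and 4 left out it stood at -0.73 and did not pass (edgeR adjusted p = 0.0933).

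Srebf1, whose product turns on fatty acid synthesis under insulin, was at 56.2, 42.2, 93.8 and 155 CPM in the controls and 45.7, 37, 51.1 and 36.8 CPM in the grafts. Control 2 lay among the grafts, while controls 3 and 4 lay above all of them. Srebf1 fell by 1.02 ± 0.36 log2 units (edgeR adjusted p = 0.0429). The call was lost with library totals alone (edgeR adjusted p = 0.103), with upper-quartile factors (0.0526), or when 1 library was left out: control 3 (0.0872), control 4 (0.113), graft 1 (0.0794), graft 2 (0.0969), graft 3 (0.0639) or graft 4 (0.0998). With controls 3 and 4 left out the edgeR adjusted p was 0.46, and with the title number as a block 0.0719. Cebpa, a factor that maintains the fat cell state and also acts in myeloid cells, was at 24.5, 20.4, 61.3 and 79.9 CPM and 27.5, 37.8, 41.9 and 33.8 CPM. All 4 grafts lay above controls 1 and 2 and below controls 3 and 4. Over all controls Cebpa stood at -0.39 ± 0.40 (edgeR adjusted p = 0.458), but against controls 1 and 2 alone it rose by 0.65 (edgeR adjusted p = 0.0466). It was the only member to rise in any of the fits run.

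Among the uptake genes, Slc2a4, Aqp7 and Fabp4 fell and Lpl did not pass. Slc2a4, the insulin-responsive glucose carrier GLUT4 of fat and muscle, was at 71.4, 48.4, 48.9 and 108 CPM in the controls and 11, 4.73, 7.84 and 8.47 CPM in the grafts. The groups did not overlap, and controls 2 and 3 were level although their adipocyte marker sums were 932 and 2468 CPM. It fell by 3.10 ± 0.33 log2 units (edgeR adjusted p = 0.000117), and by 2.89 with controls 3 and 4 left out. Aqp7, the channel by which glycerol crosses the fat cell membrane, was at 4.27, 6.77, 15.6 and 30.8 CPM and 0.364, 0, 0.96 and 0.385 CPM, all grafts below all controls. It fell by 5.04 ± 0.84 (edgeR adjusted p = 0.00128), by 4.37 without control 4 and by 5.69 without graft 3. Fabp4, the fatty acid carrier of fat cells, macrophages and capillary endothelium, was at 149, 290.4, 629 and 692 CPM and 80.8, 96.1, 87.6 and 136 CPM. Graft 4 came close to control 1. Fabp4 fell by 2.13 ± 0.44 (edgeR adjusted p = 0.00381), and by 1.13 with controls 3 and 4 left out (edgeR adjusted p = 0.025). Lpl, the lipase that frees fatty acids from circulating lipoproteins and is made by fat cells, muscle and macrophages, was at 387, 560.1, 822 and 1446 CPM and 380.4, 389, 177 and 541 CPM. Control 1 lay among the grafts, of which graft 3 was the lowest. Lpl stood at -1.11 ± 0.43 (edgeR adjusted p = 0.0625) and passed by DESeq2 (adjusted p = 0.0181) or without control 1 (edgeR adjusted p = 0.0227).

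Fatty acid synthesis genes lay lower in all 4 grafts than in all 4 controls for each of 6 members, of which 5 fell. Thrsp (Spot 14), a regulator of lipogenesis, was at 68.2, 89.7, 419 and 1218 CPM in the controls and 0.546, 0.0751, 0.16 and 0.128 CPM in the grafts. Its 4 grafts shared 14 counts against 13345 in the controls, a ratio of 1355 (95% counting interval 808 to 2480), and its log2 fold change was -10.81 ± 1.30 (edgeR adjusted p = 0.000214), -9.59 without control 4 and -11.72 without graft 1. Fasn, fatty acid synthase, was at 451, 226, 481 and 3644 CPM and 155, 126, 119 and 110.5 CPM. Control 4 alone was more than 7 times as high as any other control, and control 2 was the closest to the grafts. Fasn fell by 3.23 ± 0.81 log2 units (edgeR adjusted p = 0.0103), and by 1.59 without control 4 (edgeR adjusted p = 0.00204).

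Acaca, the carboxylase that makes malonyl-CoA for synthesis, was at 151, 169, 279.8 and 1077 CPM and 94.4, 95.2, 89.6 and 93.2 CPM, so the grafts were closely alike and control 4 stood far above the other controls. It fell by 2.17 ± 0.58 (edgeR adjusted p = 0.0143), and by 1.10 without control 4. Acacb, the carboxylase tied to mitochondria that restrains fatty acid oxidation, was at 58.5, 55.7, 145 and 131 CPM and 19.6, 9.69, 15.4 and 17.5 CPM, with controls 3 and 4 alike. It fell by 2.64 ± 0.37 (edgeR adjusted p = 0.000466). Me1, the malic enzyme that supplies NADPH, was at 70.3, 93.5, 103 and 556 CPM and 56.9, 45.4, 24.8 and 39.8 CPM, and fell by 2.29 ± 0.65 (edgeR adjusted p = 0.0182). Without control 4 it fell by 1.08, and without graft 3 it missed the threshold (edgeR adjusted p = 0.0531). Acly, which splits citrate into cytosolic acetyl-CoA, was at 156, 165, 246 and 1275 CPM and 139.8, 127, 136 and 149 CPM. Control 1 lay just above graft 4, and Acly, at -1.74 ± 0.64, did not pass (edgeR adjusted p = 0.0515). It passed without control 1 (edgeR adjusted p = 0.0231), without control 2 (0.0342) or with no low-count filter (0.0439).

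All 5 tested genes that activate, elongate or desaturate fatty acids fell, and none of the 5 overlapped between the groups. Scd1, the desaturase that makes oleate, varied most among the controls, at 307, 77.2, 1794 and 6141 CPM, against 20.1, 7.14, 19.5 and 21.2 CPM in the grafts. Its highest control was 79.6 times its lowest. Scd1 fell by 6.93 ± 1.30 log2 units (edgeR adjusted p = 0.00243), by 5.41 without control 4 and by 3.50 with controls 3 and 4 left out. Acsl1, which couples long fatty acids to coenzyme A, was at 161, 209, 572 and 932 CPM and 35.3, 36.3, 33.7 and 29.6 CPM, following the adipocyte markers in the controls and nearly level in the grafts. It fell by 3.80 ± 0.53 (edgeR adjusted p = 0.000491).

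Among the genes of polyunsaturated fatty acid synthesis, Fads1 and Fads2 did not follow the adipocyte markers in the controls. Elovl5 kept the order of the marker sum but not its spread, and its highest control was 1.84 times its lowest. Fads1, a desaturase, was at 134, 149.7, 132 and 192 CPM and 77.4, 64.1, 53 and 61.8 CPM, and its highest control was 1.45 times its lowest. Fads2, the desaturase that opens this pathway, was at 40.8, 35.7, 23.8 and 27.1 CPM and 12.6, 6.08, 10 and 10.1 CPM, with controls 1 and 2 above controls 3 and 4. Fads1 fell by 1.25 ± 0.16 (edgeR adjusted p = 0.000326) and Fads2 by 1.71 ± 0.25 (edgeR adjusted p = 0.000636). With controls 3 and 4 left out Fads1 fell by 1.14 and Fads2 by 1.97. Elovl5, an elongase of the same pathway, was at 224, 318, 344 and 412 CPM and 147, 129, 136 and 173 CPM and fell by 1.15 ± 0.19 (edgeR adjusted p = 0.0011). Elovl6, which lengthens palmitate, was barely counted: 0, 4, 1 and 7 counts in controls 1 to 4 and 1 count over the 4 grafts, a ratio of 17.1 with a 95% counting interval from 2.52 to 729.

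Of the 7 genes that build triglyceride, 6 fell and Dgat1 did not pass. Pck1, which makes the glycerol backbone from pyruvate in fat cells, was at 22.6, 52.8, 331 and 219.9 CPM in the controls and 0.789, 0, 0.16 and 0.193 CPM in the grafts. It was highest in control 3, and the grafts held 18 counts together against 5966 in the controls, a ratio of 471 (95% counting interval 298 to 796). Pck1 stood at -8.95 ± 1.13 (edgeR adjusted p = 0.000277), at -8.28 without control 3 and at -10.20 without graft 1. Gpd1, which makes the same backbone from glucose, was at 67.6, 71.2, 302 and 1047 CPM and 2.12, 0.751, 0.8 and 3.6 CPM. It fell by 7.63 ± 1.12 (edgeR adjusted p = 0.000628), and by 6.29 without control 4.

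The acyltransferases Gpam and Agpat2, which add the fatty acids to the backbone, differed less. Gpam was at 51, 51.1, 67.9 and 162 CPM and 25.9, 20.1, 19.8 and 20.9 CPM, with controls 1 and 2 level, and Agpat2 at 13.4, 14.9, 38.1 and 74.3 CPM and 6.92, 5.56, 6.08 and 6.03 CPM. Gpam fell by 1.93 ± 0.36 (edgeR adjusted p = 0.00244) and Agpat2 by 2.50 ± 0.51 (edgeR adjusted p = 0.00384), the latter by 1.84 without control 4. Lpin1, a phosphatase that yields diacylglycerol, was at 37.9, 45.7, 96.1 and 139 CPM and 34.2, 24.8, 38.1 and 40.8 CPM, with control 1 among the grafts. Lpin1 fell by 1.20 ± 0.38 (edgeR adjusted p = 0.0303). Its call was lost with library totals alone (edgeR adjusted p = 0.0665), with controls 3 and 4 left out (0.374), or without control 3 (0.0731), control 4 (0.0849), graft 1 (0.0687), graft 2 (0.0766) or graft 3 (0.0595).

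The 2 enzymes of the last step differed from each other. Dgat2, the form tied to storage droplets, was at 99, 70.2, 219.8 and 469 CPM and 7.46, 19.2, 10.2 and 7.51 CPM, and graft 2 was the highest of the grafts. It fell by 4.27 ± 0.64 (edgeR adjusted p = 0.000689), and by 3.54 without control 4. Dgat1, the form of the endoplasmic reticulum found in most tissues, was at 17.4, 11.2, 18.7 and 23.7 CPM and 14.9, 15.3, 14.2 and 13.5 CPM, and the grafts lay inside the range of the controls. It stood at -0.29 ± 0.21 (edgeR adjusted p = 0.306) and at 0.02 with controls 3 and 4 left out. Whether the fold changes of Dgat1 and Dgat2 differ was not tested.

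The droplet coat genes included some of the deepest falls, and all 3 that were tested fell. Plin1, the perilipin that gates lipolysis in fat cells, was at 45.3, 82.1, 166 and 237 CPM in the controls and 1.03, 0.15, 0.4 and 0.128 CPM in the grafts. Graft 1 was the highest graft and still lay far below control 1. Plin1 fell by 8.19 ± 0.74 log2 units (edgeR adjusted p = 4.99e-05), and by 9.16 without graft 1. Cidec, which fuses droplets into a single large one, was at 24.8, 35.3, 92.8 and 167 CPM and 0.303, 0.0751, 0.08 and 0.321 CPM. Its summed counts of 2691 and 12 gave a ratio of 319 (95% counting interval 182 to 618), and its log2 fold change was -8.53 ± 0.83 (edgeR adjusted p = 7.06e-05), or -7.88 without control 4. Plin4, a perilipin of fat cells and muscle, was at 79.9, 89.8, 138 and 204 CPM and 9.28, 20.8, 4.88 and 6.81 CPM, with graft 2 above the other grafts. It fell by 3.61 ± 0.48 (edgeR adjusted p = 0.00039). Plin5, the perilipin of oxidative tissues, had 5, 2, 48 and 36 counts in controls 1 to 4 and 3 counts over the grafts. The ratio was 43.1 (95% counting interval 14.3 to 213), and Plin5 was removed by the low-count filter. Adig, a small membrane protein of fat cells, had 4 counts in control 4 and 0 in the other 7 libraries, which is too few for a fold.

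Of the lipolysis genes, Pnpla3, Lipe and Pnpla2 fell and Mgll did not pass. Pnpla3 (adiponutrin), a droplet lipase and acyltransferase that rises with feeding, was at 8.91, 18.6, 22.2 and 103 CPM and 0.303, 0.0751, 0.32 and 0 CPM. The controls held 1122 counts and the grafts 10, a ratio of 160 with a 95% counting interval from 86.4 to 334. Pnpla3 stood at -7.68 ± 1.04 (edgeR adjusted p = 0.000411) and at -6.50 without control 4. Lipe, hormone-sensitive lipase, was at 76.9, 66.2, 125 and 179.9 CPM and 41.4, 34.6, 54.9 and 31.8 CPM, so control 2 lay closest to graft 3. It fell by 1.46 ± 0.32 (edgeR adjusted p = 0.0051).

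Pnpla2, the adipose triglyceride lipase of the first step, was at 2.17, 0.896, 2.93 and 9.71 CPM and 0.85, 1.35, 0.32 and 0.77 CPM. It rested on 9 to 52 counts per control and 4 to 18 per graft, and control 2 lay among the grafts. Pnpla2 fell by 2.17 ± 0.71 (edgeR adjusted p = 0.0333), a call lost without control 3 (edgeR adjusted p = 0.0508), control 4 (0.105, at -1.27), graft 1 (0.0739), graft 3 (0.0822) or graft 4 (0.0757), with controls 3 and 4 left out (0.318) and with the title number as a block (0.0873). Mgll, which splits the last fatty acid from glycerol in most tissues, was at 15.3, 12.9, 16.5 and 27.3 CPM and 16.5, 14.9, 14.6 and 18.2 CPM, so the grafts lay among the controls. It stood at -0.15 ± 0.23 (edgeR adjusted p = 0.629), and its sign turned to 0.08 with library totals alone and to 0.12 without control 4.

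Each control on its own stood above the grafts for most members, and controls 3 and 4, with the highest adipocyte markers, stood farthest above them. Set against the mean of the 4 grafts on the log2 CPM scale, the median difference over the 36 members was 1.30 in control 1, 1.25 in control 2, 2.17 in control 3 and 3.48 in control 4. The 11 adipocyte markers gave medians of 4.40, 5.30, 6.79 and 6.89. Control 1 lay above every graft for 29 members, control 2 for 30, control 3 for 34 and control 4 for 36. For single controls, no counts or medians over all genes tested are given to set beside these. Controls 3 and 4 were both above controls 1 and 2 for 31 of 36 members and 11 of 11 adipocyte markers, against 21.5% of all genes tested. The exceptions were Slc2a4, Fads1 and Fads2 and the barely counted Elovl6 and Adig. With controls 3 and 4 left out, 24 members fell and 1 rose, while 2253 of the 16445 genes tested fell and 2525 rose. The fold of 24 members called over all controls shrank by more than 1.5 times. With those 2 controls left out, the members still falling most were Thrsp, at -8.31, Plin1, at -7.13, and Cidec, at -7.13.

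**Figure D3:**
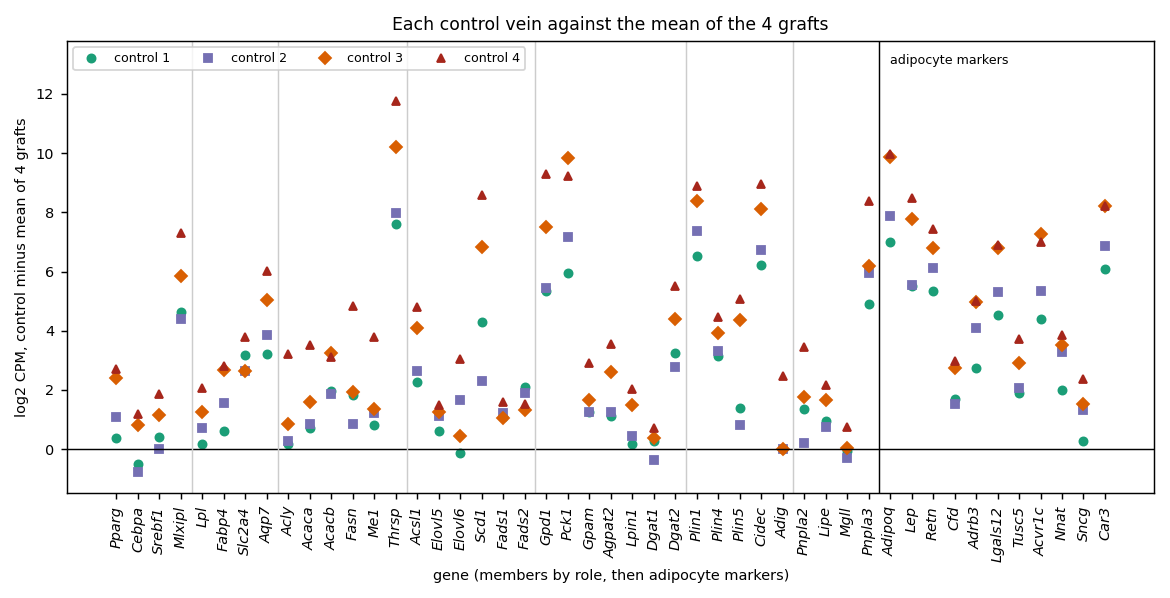
Points are log2 CPM of each control minus the mean of the 4 grafts (y axis) for the 36 members by role and 11 adipocyte markers (x axis); colour and shape give the control. Thrsp, at 7.59 in control 1 and 11.75 in control 4, lies highest, and Cebpa in control 2, at -0.77, lowest.

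Controls 3 and 4 were closer in the 11 adipocyte markers than in the fatty acid synthesis genes. Control 4 over control 3, the median ratio of CPM was 1.16 for the 11 adipocyte markers (0.821 to 1.81) and 1.00 for the 12451 genes tested that had at least 50 counts in these 2 libraries. It was 4.51 for the 6 fatty acid synthesis genes, 5 of which stood more than 2 times higher in control 4. None of the 11 adipocyte markers exceeded a ratio of 2, and 1.61% of all genes did. The 34 members with at least 50 counts had a median ratio of 1.72. Outside the 11, the brown fat markers Ucp1 and Cidea stood at 33.5 and 72.6 CPM in control 3 and at 79.1 and 131 CPM in control 4. Ppargc1a was lower in control 4, at 27.1 CPM against 33.6 CPM. Fasn had a ratio of 7.57 (95% counting interval 7.35 to 7.80), Me1 of 5.41 (5.06 to 5.79), Acly of 5.18 (4.96 to 5.41), Pnpla3 of 4.64 (4.00 to 5.39) and Acaca of 3.85 (3.69 to 4.02). Gpd1, Scd1, Thrsp and Mlxipl stood at 3.47, 3.42, 2.91 and 2.74, and Pnpla2, on 35 and 52 counts, at 3.31 (2.12 to 5.24). Gpam, Slc2a4 and Dgat2 made up the 13 members above 2, at 2.39, 2.21 and 2.13. The droplet coat genes lay between 1.42 and 1.80. Acacb, at 0.907, and Pck1, at 0.664, were lower in control 4. These ratios compare 2 single libraries with no replicate, the intervals cover counting error only, and control 4 had the fewest counts.

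**Figure D4:**
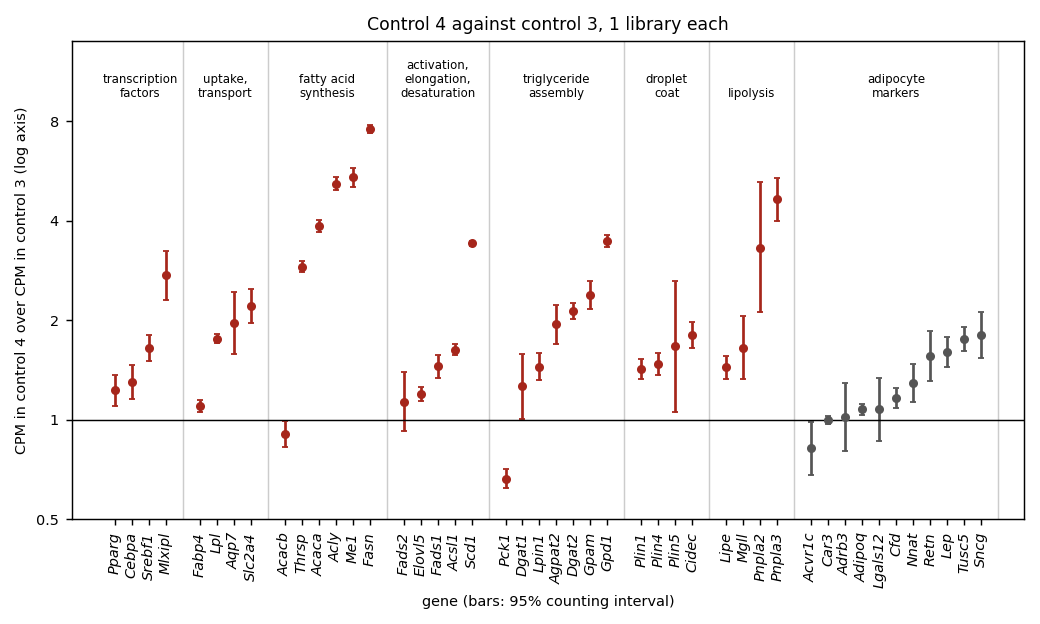
Points are the ratio of CPM in control 4 to CPM in control 3 (log y axis) for members with at least 50 counts in both together, by role, and for adipocyte markers (grey); bars are 95% counting intervals. Fatty acid synthesis genes reach 7.57 for Fasn, while the markers end at 1.81 for Sncg.

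Other genes of lipid handling did not move as a block. Of a list of 52, 51 were found by current or older symbol and 45 tested: 12 fell, 10 rose and 23 missed the threshold. Over all genes tested 21.3% fell and 21% rose, so these counts alone do not set the list apart. The median of the log2 fold changes was -0.24 against 0.01 over all genes tested. The lowest p among those that fell belonged to Klf15, a glucocorticoid-induced factor of fat and muscle, which fell by 2.01 ± 0.18 (edgeR adjusted p = 4.39e-05). Klf15 measured 29.6, 23.6, 25.3 and 23.7 CPM across the controls, which were alike, and 6.01, 5.18, 6.32 and 7.9 CPM across the grafts. Ces1d, a lipase of fat and liver, fell by 7.72 ± 0.72 (edgeR adjusted p = 5.64e-05), from 34.8, 68, 128 and 227 CPM to under 1 CPM in each graft. G0s2, an inhibitor of adipose triglyceride lipase, fell by 3.30 ± 0.37 (edgeR adjusted p = 0.000155), from 12.5, 7.37, 14.5 and 23 CPM to 1.03, 1.28, 1.52 and 1.93 CPM. Elovl7, an elongase, fell by 3.56 ± 0.41 (edgeR adjusted p = 0.000177), from 9.44, 4.68, 9.54 and 8.59 CPM to 0.789, 0.3, 0.48 and 1.09 CPM. Cd36, a fatty acid receptor of fat cells, macrophages and endothelium, was at 79.9, 159.7, 250.5 and 306 CPM and 56.1, 55.9, 57.8 and 106 CPM and fell by 1.53 ± 0.39 (edgeR adjusted p = 0.0112).

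The smallest p among the 10 that rose were those of Lipa, Plin2, Fabp5 and Angptl4. Lipa, the acid lipase of lysosomes, was at 55.2, 51.4, 56.9 and 57.3 CPM in the controls and 184, 249, 180.1 and 313 CPM in the grafts, and rose by 2.07 ± 0.19 (edgeR adjusted p = 4.77e-05). Plin2, the perilipin that coats droplets in macrophages and most other cells, was at 32.8, 37, 40.7 and 44.4 CPM and 88.7, 126, 157 and 116 CPM. The controls differed little, and every graft was higher than every control. Plin2 rose by 1.66 ± 0.18 (edgeR adjusted p = 0.000124), while Plin1 and Plin4 fell. Fabp5, a fatty acid carrier of macrophages and epithelium, was at 3.97, 2.29, 3.6 and 4.48 CPM and 13.5, 29.6, 15 and 27.4 CPM and rose by 2.58 ± 0.33 (edgeR adjusted p = 0.00029). Angptl4, an inhibitor of lipoprotein lipase, was at 6.37, 5.38, 13.6 and 7.09 CPM and 15.8, 51.8, 30.4 and 22.3 CPM, highest in graft 2, and rose by 1.88 ± 0.41 (edgeR adjusted p = 0.00527). Of the macrophage markers given above, 8 rose beside these genes, and their part in the rises was not tested.

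**Figure D5:**
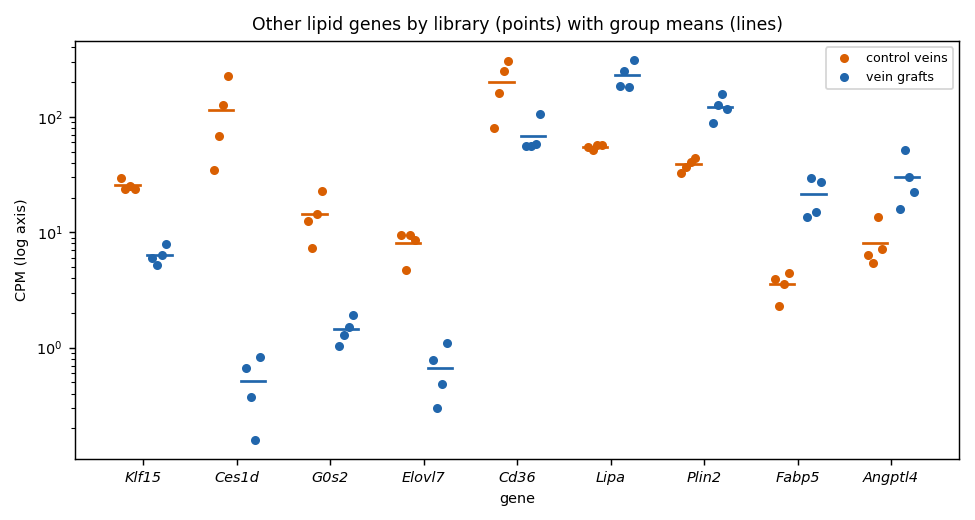
Points are the CPM of each library (log y axis) for 9 lipid genes outside the 36 members (x axis), orange for controls and blue for grafts, with lines at the group means. Klf15, Ces1d, G0s2 and Elovl7 lie lower in all grafts, Lipa, Plin2, Fabp5 and Angptl4 higher, and Cd36 overlaps, with graft 4 at 106 CPM and control 1 at 79.9 CPM.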

How the data were processed

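RNA of 4 vein grafts and 4 control jugular veins was sequenced. Reads were aligned with HISAT2 2.0.4 to Rnor_6.0, per the submitters' processing notes, and the authors deposited whole-number counts per gene. Not given in the sources used here were the read counter, annotation and strand setting, so reads of overlapping or antisense genes cannot be told apart. Groups come from the sample titles, whose numbers 1 to 4 are not those of the source names, so the test is unpaired. Counts of any pair of same-group libraries differed beyond sampling noise.

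Counts were fitted in R 4.3.3 with edgeR 4.0.16: filterByExpr (minimum count 10), TMM factors (0.9 to 1.19), glmQLFit and glmQLFTest over 4 against 4 libraries, and Benjamini-Hochberg adjustment over all 15464 genes. The SE is the absolute log2 fold change over the square root of F. CPM use the TMM-scaled library sizes, and log2 CPM a prior count of 2. The procedure was run on simulated counts with fewer and smaller changes than these data, so that run does not test its behaviour here. Alternatives were DESeq2 1.42.0, other scaling factors, no filter, the title number as a block and libraries left out. Adjusted p-values given for DESeq2 are from its Wald test.

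Every member is named. Values in each library are given for every tested member, for the 4 other lipid genes with the smallest p in each direction, for Plin2, Cd36, G0s2 and Angptl4, and, of the first 2 genes of each marker list, for those that a result turns on. Older symbols were matched through the GRCr8 RefSeq gene table, which left Scd2 unmatched. A separate row named Scd, which could stand for Scd2 or for the gene of Scd1, was not used. The members and lists were chosen with earlier results of these data known.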

Additional observations from a re-analysis of the deposited data

Results flagged for a closer look

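Of 72 sets of 4 libraries (36 members in 2 groups), 3 had 1 library far from the other 3 on the log2 CPM scale, where chance gives about 1 in 20. Scd1 stood at 7.14 CPM in graft 2 and at 19.5 to 21.2 CPM in the other grafts. Elovl6 stood at 0.08 CPM in graft 3, a single count, and at 0 in the other grafts. Adig stood at 0.747 CPM in control 4, with 4 counts, and at 0 in the other controls.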

How the results depend on the processing

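Members that fell numbered 24 to 30 and those that rose 0 with 1 library left out in turn, 28 and 0 with DESeq2 or its size factors, 26 and 0 with library totals alone, 27 and 0 with upper-quartile factors and 30 and 0 with no low-count filter. With controls 3 and 4 left out, 24 fell and 1 (Cebpa) rose, while 2253 of 16445 genes fell and 2525 rose. With controls 1 and 2 left out, chosen after seeing the data, 33 of 34 tested fell, while 3489 of 16423 genes fell. DESeq2 gave no adjusted p for Acly and Me1. Library totals alone moved the median of all genes to 0.23 and the falls among all genes from 3288 to 2164, with 4558 rises in place of 3250. Signs turned for Mgll, to 0.0773 with library totals alone, to 0.19 with controls 3 and 4 left out and over a range of -0.27 to 0.12 with 1 library left out, and, with controls 3 and 4 left out, for Cebpa (0.65) and Dgat1 (0.0182). The cause was not tested. Without control 4, the fold of 13 members shrank by more than 1.5 times. With the title number as a replicate block, 26 members fell and 0 rose. Same-numbered grafts and controls correlated at -0.07, 0.18, 0.07 and 0.05 in their deviations from the group means, and 1 of the 4 controls correlated best with its own number, so the numbers were not taken as pairs. Elovl6, Plin5 and Adig did not pass the low-count filter, although Plin5 had 48 and 36 counts in controls 3 and 4.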

Other observations

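Of the 51 lipid genes found outside the 36 members, control 4 was the highest control for 24 (47.1%, against 22.9% of all genes tested) and the lowest for 8 (15.7% against 26.9%), among them Plin3 and Hilpda. The 3 genes below were singled out from the 24 after their values were seen. Slc25a1, the carrier that brings citrate to the cytosol, measured 14.4, 9.06, 14.8 and 62 CPM across controls 1 to 4 and 22.5, 15.8, 19.2 and 16.1 CPM across the grafts. Acss2, which makes acetyl-CoA from acetate, stood at 39.7, 45.7, 71.4 and 158 CPM and 26.6, 27.7, 23 and 30.6 CPM, and Insig1, a sterol sensor that is itself a target of the SREBP factors, at 44.6, 70.2, 106 and 189 CPM and 80.1, 71.2, 41 and 78.9 CPM. Acss2 fell (edgeR adjusted p = 0.0118), whereas Slc25a1 (edgeR adjusted p = 0.553) and Insig1 (edgeR adjusted p = 0.264) did not pass. Adipoq stood at 613 and 660.4 CPM in controls 3 and 4.

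Among the grafts, graft 2 was highest for Dgat2 (19.2 CPM against 7.46 to 10.2) and Plin4 (20.8 CPM against 4.88 to 9.28), and lowest for Scd1 (7.14 CPM against 19.5 to 21.2). Adipoq had 0 counts in that library.

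Cebpb and Cebpd, the early C/EBP factors, both rose. The log2 fold change was 1.58 ± 0.36 for Cebpb (edgeR adjusted p = 0.0066) and, for Cebpd, 1.34 ± 0.41 (edgeR adjusted p = 0.0257). Cebpb stood at 12.5, 4.78, 6.27 and 11.9 CPM in the controls and 15.2, 25.6, 36.8 and 27.7 CPM in the grafts, and Cebpd at 9.59, 8.56, 10.5 and 11.9 CPM and 11.7, 16.8, 51.1 and 22.9 CPM, highest in graft 3.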
